A study of Homo sapiens with 13 samples.

Results

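The endothelin system of MDA-MB-231 cells was described here at 5 genes, the ligand genes EDN1, EDN2 and EDN3 and the receptor genes EDNRA and EDNRB. They were taken by name as a family, out of 19881 protein-coding genes of the annotation, with no threshold on a measured value. MDA-MB-231 is an established triple negative, basal B breast cancer cell line. The cells grew under standard conditions, in medium with 10% fetal calf serum, and no treatment differed between samples. ChIP-seq, the sequencing of DNA that is pulled down with an antibody from fixed chromatin, was done on 13 samples: 2 for each of H3K4me1, H3K27ac, H3K4me3, RNA polymerase II (Pol II) and CTCF, 1 for p300/CBP and 2 of input chromatin.

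Endothelins are small secreted peptides. Each is cut from a larger precursor by furin-like proteases and then by endothelin-converting enzymes, and acts on nearby cells through a pair of G protein-coupled receptors. Endothelin-1, the product of EDN1, is a strong vasoconstrictor made mainly by endothelial cells, but also by many carcinomas. Endothelin-2 binds the same receptors, and endothelin-3 acts chiefly through the endothelin B receptor in the development of neural crest cells. EDNRA encodes the endothelin A receptor, which prefers endothelin-1 and endothelin-2, and EDNRB encodes the endothelin B receptor, which binds all endothelins alike.

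The measured quantities were the positions and widths of enriched regions (peaks). H3K4me3 and Pol II are typical of active promoters, H3K4me1 of enhancers and promoter flanks, and H3K27ac of active elements of either kind. p300 and CBP are acetyltransferases recruited to many active enhancers, and CTCF is a DNA-binding protein found at insulators and loop anchors. Each list was made from merged replicates (p300/CBP from 1 library) and holds no signal value, so no result has a replicate error or a test, and the read depth behind a peak is unknown. All counts are therefore descriptions of these 6 lists, set beside the same count over all protein-coding genes. A missing peak means that the merged signal did not pass the threshold of that list, not that the mark or factor was absent, and a listed peak is not a measure of transcript.

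The number of peaks was 88319 for H3K4me1, 41034 for H3K27ac, 24693 for H3K4me3, 26065 for Pol II, 39596 for CTCF and 13984 for p300/CBP. For Pol II, CTCF and above all p300/CBP, these lists hold more peaks than the study reports. A p300/CBP peak named here may therefore lie outside the set that the study used. Markers of cell types were read as well. VIM, CD44, AXL and CAV1, markers of mesenchymal basal B cells, carried H3K27ac, H3K4me3 and Pol II in 4 of 4 start-site windows. Over all protein-coding genes the shares were 61.5%, 62.7% and 58.4%. Of 6 luminal markers, FOXA1 and KRT8 carried the same marks, PGR carried H3K4me3 alone, and ESR1, GATA3 and EPCAM had no peak of any list. Among the endothelial markers, VWF and TEK had none and CDH5 had H3K4me1 and H3K27ac without H3K4me3 or Pol II. PECAM1 was not analysed here. A window without any peak was found at 28% of all protein-coding genes. With such shares, these few markers do not identify the cell type.

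Within 3 kb windows centred on the canonical transcription start site (TSS), the 5 genes showed 5 different combinations of peaks. H3K4me1 marked 3 of 5 windows (59.4% of all protein-coding genes), H3K27ac 3 of 5 (61.5%) and H3K4me3 3 of 5 (62.7%). Pol II was listed at 2 of 5 (58.4%) and CTCF at 2 of 5 (17.6%). p300/CBP was listed at none of the 5 windows, and at 0.704% of all genes. No test compares shares over 5 genes with those of the genome. H3K27ac, H3K4me3 and Pol II came together at EDN1 and EDNRB. EDNRA had H3K4me3 without H3K27ac, EDN2 had H3K27ac without H3K4me3, and EDN3 had nothing. When peaks narrower than the median of their list were dropped, H3K27ac and Pol II remained at EDN1 and not at EDN2 or EDNRB.

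**Figure D1:**
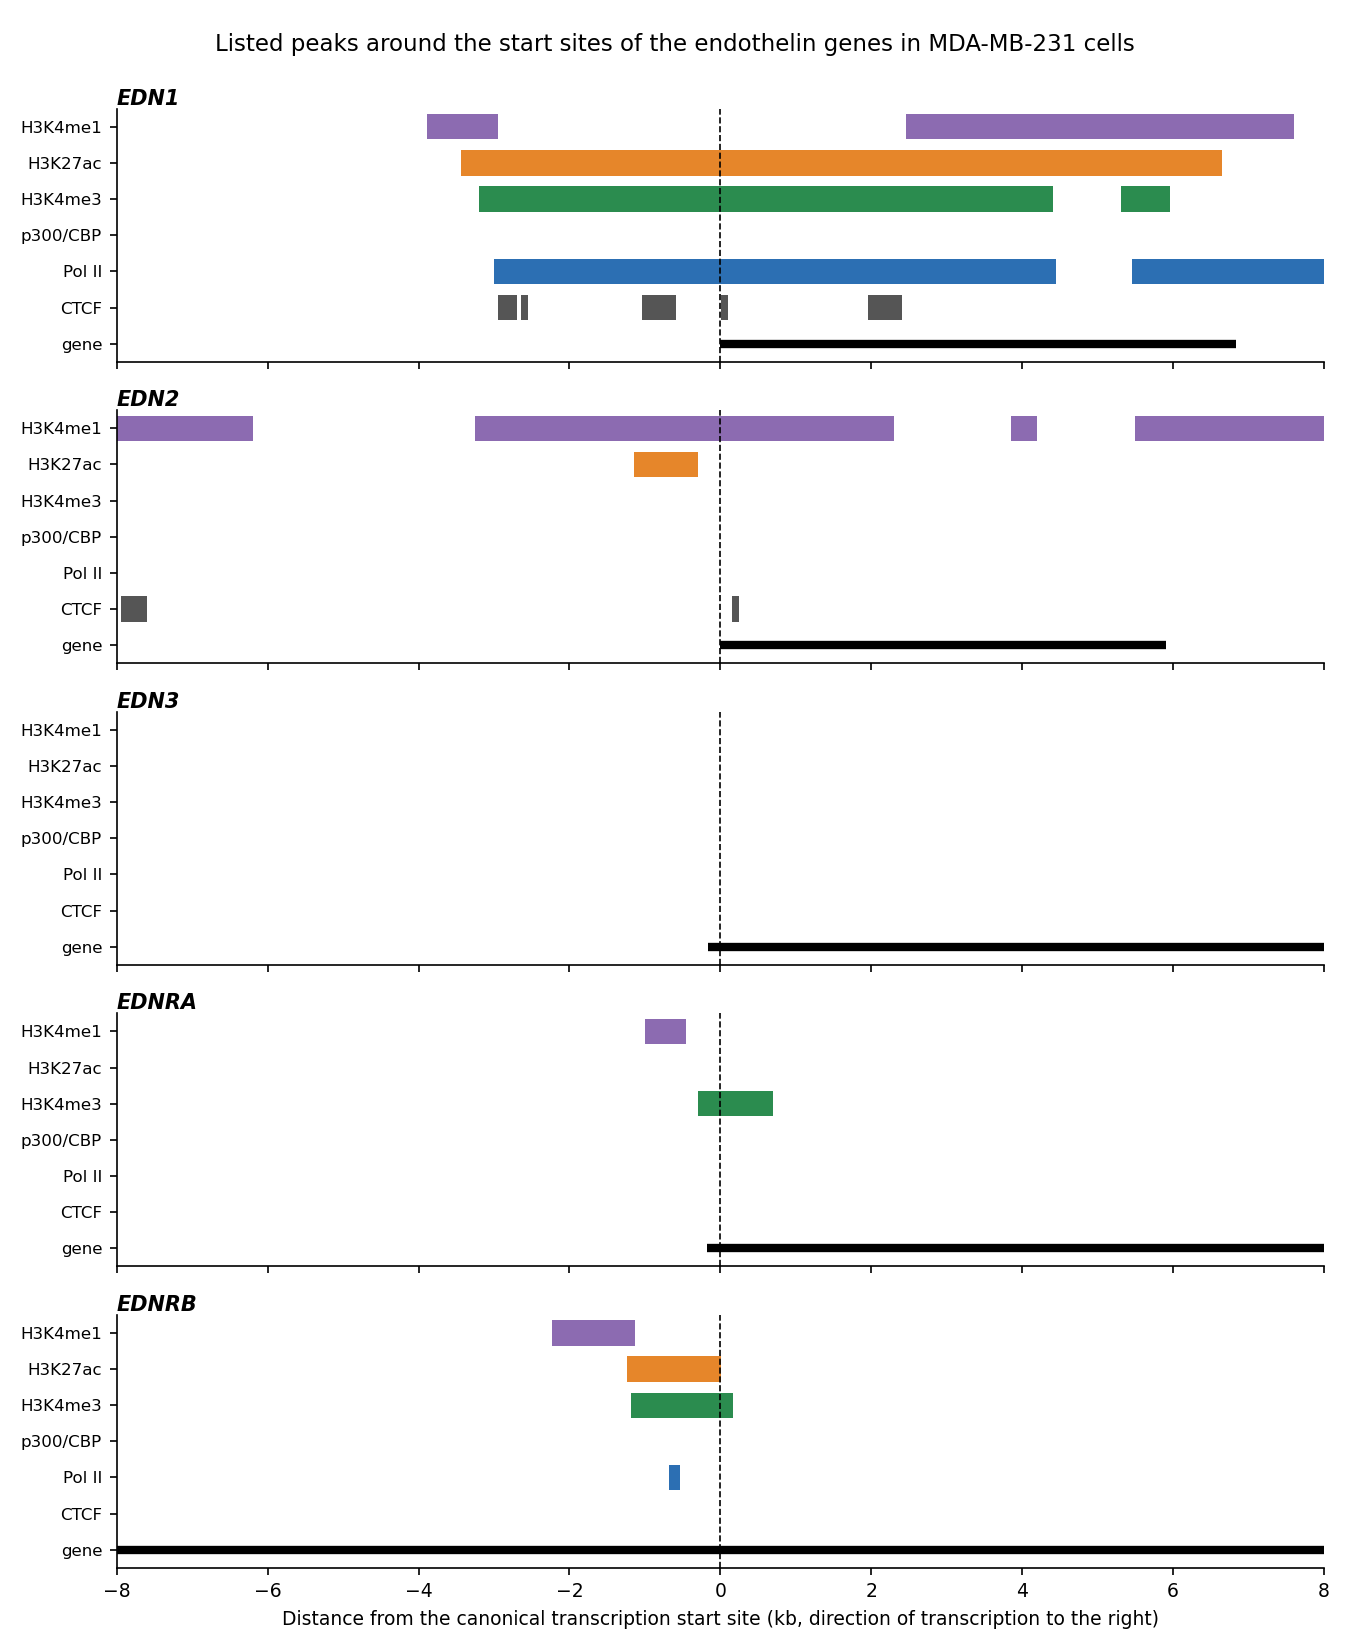
Peaks of the 6 lists within 8 kb of the canonical start site of each endothelin gene, drawn to scale, with distance in kb along the direction of transcription on the horizontal axis, 1 row for each list, and the gene as a black bar. EDN1 lies under H3K27ac, H3K4me3 and Pol II peaks of 10.1, 7.6 and 7.45 kb, whereas the EDNRB and EDNRA peaks are at most 1.35 kb wide and EDN3 has no peak.

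EDN1 (ENSG00000078401) occupies chr6:12290594-12297427 on the plus strand of hg19, with 5 exons over 6.834 kb. Its TSS lay under an H3K27ac peak of 10100 bp (chr6:12287151-12297251), which ran from 3.443 kb upstream to 6.656 kb downstream and so spanned nearly the whole gene. That peak was wider than 99.3% of the 12356 H3K27ac peaks that touch a start-site window, whose median width was 1850 bp. The H3K4me3 peak measured 7600 bp (chr6:12287401-12295001) and was likewise wider than 99.3% of its kind, with a median of 2000 bp. The Pol II peak measured 7450 bp (chr6:12287601-12295051), wider than 95.2% of the Pol II peaks at start sites, with a median of 1000 bp. A further Pol II peak of 3100 bp began 5.457 kb downstream of the TSS and ran across the 3′ end of the gene. Wide domains of this kind set EDN1 apart from the other endothelin genes, none of which had an H3K27ac or H3K4me3 peak at the TSS above 1350 bp.

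H3K4me1 was not listed in the EDN1 window but flanked the domain on both sides. A 950 bp peak ended 2.944 kb upstream of the TSS, and a 5150 bp peak began 2.457 kb downstream and passed the 3′ end. The combination of H3K27ac, H3K4me3, Pol II and CTCF without H3K4me1 was shared by 388 genes in all, or 1.95%. The 5 CTCF peaks of the domain lay between 2.943 kb upstream and 2.406 kb downstream of the TSS, were 100 to 450 bp wide, and all fell inside the Pol II and H3K27ac peaks. The names of the deposited lists record no background subtraction for CTCF and Pol II, in contrast to the other 4 lists, and the part this has in the CTCF peaks was not tested. RefSeq gives 2 more EDN1 starts, 347 and 2342 bp upstream of the canonical one, and both lay under the same H3K27ac, H3K4me3 and Pol II peaks.

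The 250 bases upstream of the EDN1 start are shown because this promoter carries letters for several factors known to act on it. Both strands were searched for the AP-1 site of Fos and Jun dimers as TGANTCA and for its common variant as TGACTAA. The site of GATA factors was searched as AGATAA, the core of the hypoxia response element as ACGTG and the TATA box as TATAAA, with the core consensus of CTCF as a further motif. No letters are shared between the matches. In the sequence, from chr6:12290344-12290593 of GRCh37, plus strand, capitals mark the matches.
EDN1 promoter: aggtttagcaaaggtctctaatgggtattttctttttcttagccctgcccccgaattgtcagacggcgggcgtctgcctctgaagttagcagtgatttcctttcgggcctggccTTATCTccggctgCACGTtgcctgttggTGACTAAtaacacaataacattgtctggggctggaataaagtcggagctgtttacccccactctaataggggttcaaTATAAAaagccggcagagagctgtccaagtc
From 5′ to 3′ the matches were AGATAA on the opposite strand 136 to 131 bases upstream of the TSS, ACGTG on the opposite strand at 123 to 119, TGACTAA at 108 to 102 and TATAAA at 31 to 26. Over the 19881 promoters of the same length, AGATAA was found in 6.56%, ACGTG in 20.5%, TGACTAA in 1.08% and TATAAA in 9.26%. TGANTCA, found in 4.69% of promoters, had no match here. A match is a stretch of letters, and none of these factors was measured at it. In 1000 bases centred on the TSS the GC content was 48.9%, and 15% of genes had a lower one (median 61.3%), and the observed to expected CpG ratio was 0.67 (median 0.73).

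EDN2 (ENSG00000127129) lies at chr1:41944446-41950354 on the minus strand, with 5 exons over 5.909 kb. Its TSS was covered by an H3K4me1 peak of 5550 bp (chr1:41948051-41953601), wider than 95.2% of the H3K4me1 peaks at start sites. An H3K27ac peak of 850 bp lay 0.297 kb upstream, and a CTCF peak of 100 bp lay 0.154 kb downstream, inside the gene. No H3K4me3 or Pol II peak was listed nearer than 11.147 and 11.397 kb upstream. This combination was rare, found at 26 genes or 0.131%. The EDN2 promoter is shown beside that of EDN1 because none of the motifs searched matched it, nor did any of them match the corresponding bases of EDN3 and EDNRA. It is read from chr1:41950355-41950604, minus strand. The search asked for exact letters, and near its 3′ end this sequence holds tataag, which differs from TATAAA in the last letter.
EDN2 promoter: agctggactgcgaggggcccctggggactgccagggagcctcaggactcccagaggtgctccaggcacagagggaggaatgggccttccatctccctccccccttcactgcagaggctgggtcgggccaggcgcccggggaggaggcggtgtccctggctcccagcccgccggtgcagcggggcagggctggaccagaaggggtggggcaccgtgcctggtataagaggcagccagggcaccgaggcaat
Around the EDN2 TSS the GC content was 65.8% while the CpG ratio was only 0.27, the lowest of the 5 genes, and 17% of all genes had a lower ratio.

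EDN3 (ENSG00000124205) lies at chr20:57875498-57901047 on the plus strand, over 25.55 kb. No list had a peak in its canonical start-site window, and 5566 genes or 28% likewise had none in theirs. EDN3 also had no peak in its gene body or at any of its 6 annotated starts. The nearest peak was a 200 bp H3K4me3 region 21.716 kb upstream. H3K4me1 was next, 50.835 kb downstream, followed by CTCF at 77.066 kb and H3K27ac at 78.116 kb upstream. The nearest p300/CBP and Pol II peaks lay 217.466 and 252.416 kb upstream. The CpG ratio of its TSS (0.76) was above the median of all genes, unlike that of EDN1 and EDN2.

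EDNRA (ENSG00000151617) lies at chr4:148402069-148466106 on the plus strand, with 8 exons over 64.038 kb. An H3K4me3 peak of 1000 bp (chr4:148401951-148402951) covered its TSS and a 550 bp H3K4me1 peak lay 0.449 kb upstream. No H3K27ac, Pol II, p300/CBP or CTCF peak was listed in the window, a combination shared by 194 genes or 0.976%. The nearest H3K27ac peak was 17.252 kb downstream, within the gene. The nearest Pol II peak, 135.952 kb downstream, sat at the start of TMEM184C, the next protein-coding gene. EDNRA was thus listed with a narrow H3K4me3 peak (16.4% of those at start sites were narrower) and without a Pol II peak anywhere in the gene.

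EDNRB (ENSG00000136160) lies at chr13:78469616-78549664 on the minus strand, over 80.049 kb, with 7 annotated starts. H3K27ac (1250 bp, chr13:78492951-78494201) and H3K4me3 (1350 bp, chr13:78492801-78494151) covered the canonical TSS, and both reached over 1.1 kb upstream but at most 0.165 kb into the transcript. The Pol II peak, 150 bp wide, lay 0.535 to 0.684 kb upstream, over 3 of the alternative starts. H3K4me1 lay 1.135 kb upstream. These 4 marks together were the commonest state of the 5, found at 7195 genes or 36.2%. The start of OBI1-AS1, a long non-coding RNA on the opposite strand, lay 0.858 kb upstream under the same H3K27ac and H3K4me3 peaks, so that peaks of the 2 genes cannot be told apart. The most distant EDNRB start, 56.698 kb upstream, had no peak in its window. In the 250 bases upstream of the canonical start, ACGTG matched at 136 to 132 and again at 114 to 110 bases.

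Candidate active enhancers (cAEs) were defined as H3K4me1 regions that touch no promoter window and share at least 1 bp with H3K27ac. Candidate inactive enhancers (cIEs) were those without H3K27ac. A promoter window was the 3 kb at the canonical TSS of a protein-coding gene, whereas the study used RefSeq starts. Over the gene body and the 100 kb on each side, EDN1 had 10 cAEs and 2 cIEs, against a median over all genes of 3 and 6. Fewer cAEs were found at 95.4% of genes. EDN2 had 6 and 6, EDNRA 4 and 4, EDNRB 3 and 1, and EDN3 0 and 5. At least 1 cAE was thus present at 4 of 5 genes (80.7% of all genes), a p300/CBP peak at 3 of 5 (37.5%) and a Pol II peak at 4 of 5 (86.8%). The loci differ in length with the genes, from 205.909 kb for EDN2 to 280.049 kb for EDNRB, and the longest locus held fewer cAEs than the shortest.

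**Figure D2:**
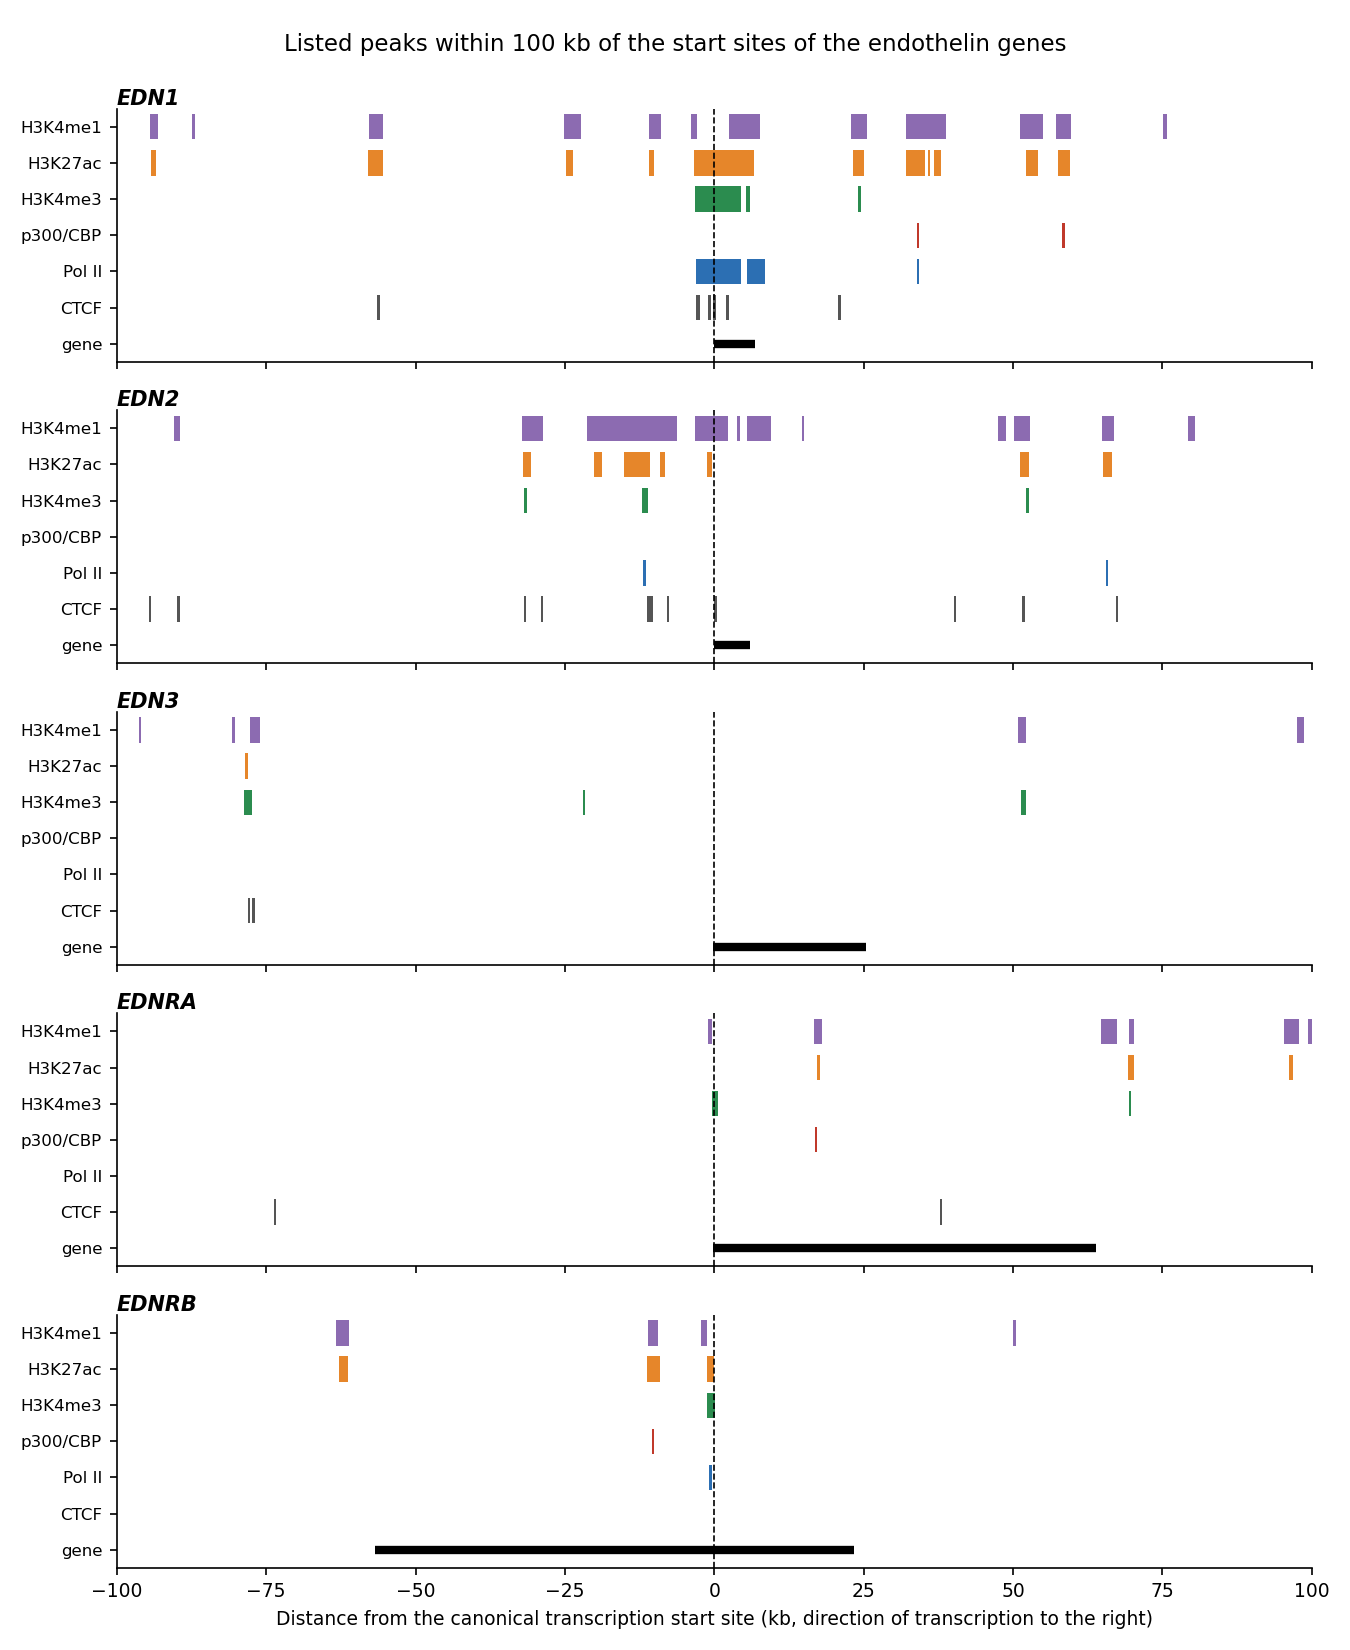
Peaks of the 6 lists within 100 kb of each canonical start site, with distance in kb along the direction of transcription on the horizontal axis, 1 row for each list, and the gene as a black bar. Bars under 0.4 kb are drawn 0.4 kb wide. H3K27ac is spread over both sides of EDN1 (11 peaks) and EDN2, while EDN3 has 1 H3K27ac peak, 78.116 kb upstream.

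Around EDN1, H3K27ac covered 25.7 kb in 11 peaks (median of all genes 9.75 kb in 6 peaks), which exceeded 87% of genes. H3K4me1 covered 31.4 kb, H3K4me3 8.6 kb and Pol II 10.75 kb, above 65.8%, 61.3% and 65.1% of genes. Of the 10 cAEs, 2 were the flanks of the promoter domain itself and shared bases with its H3K4me3 peak. The upstream flank also touched the 3 kb window of the RefSeq start 2342 bp upstream. With RefSeq starts it would not count as a cAE. The cAEs other than these flanks lay 8.994 to 94.493 kb from the TSS. p300/CBP was listed at 2 of them, both downstream. The nearer p300/CBP peak, 100 bp wide (chr6:12324651-12324751), lay 34.057 kb downstream in a cAE of 6750 bp and coincided with a Pol II peak of 200 bp. The farther one, 350 bp wide (chr6:12348851-12349201), lay 58.257 kb downstream in a cAE of 2500 bp.

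The 350 bp peak held TGANTCA at 2 places, 78 bases apart, and the stretch over both is shown as the p300/CBP peak near EDN1 that carries AP-1 letters (chr6:12348992-12349123, plus strand, matches in capitals).
EDN1 downstream element: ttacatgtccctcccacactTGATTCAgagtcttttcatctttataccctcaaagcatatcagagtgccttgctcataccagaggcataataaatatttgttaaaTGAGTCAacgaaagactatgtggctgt
TGANTCA was present in 28.1% of the 13983 p300/CBP peaks on nuclear chromosomes and in 60.2% of the 714 peaks of the same width. The 100 bp peak had no match, and of peaks that narrow 11.3% had one.

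EDN2 had the largest H3K4me1 cover of the family, 38.5 kb, above 74.4% of genes, and the most CTCF peaks, 13, with 3.35 kb covered, above 86.4% of genes. Its nearest cAE was a listed H3K4me1 region of 15050 bp (chr1:41956551-41971601), 6.197 to 21.246 kb upstream, in which gaps of up to 1000 bp may have been bridged. Inside that region lay 3 H3K27ac peaks of 800 to 4450 bp, the H3K4me3 peak of 1000 bp, the Pol II peak of 600 bp and 5 CTCF peaks. The only protein-coding or long non-coding RNA start within 100 kb on that side was that of ENSG00000230881, 50.76 kb upstream. It had no peak in its start-site window. The EDN2 locus had no p300/CBP peak, and the nearest lay 199.397 kb upstream. The core consensus of CTCF, searched on both strands with its ambiguous positions, was found in 3 of the 13 CTCF peaks (17% of all 39596 CTCF peaks). The match inside the 15050 bp region, 10.644 kb upstream, is shown because it lies near the H3K4me3 and Pol II peaks nearest to EDN2 (chr1:41960978-41961029, minus strand).
EDN2 upstream CTCF peak: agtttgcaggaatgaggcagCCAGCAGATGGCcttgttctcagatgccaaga

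The EDN3 locus held 5 cIEs and no cAE, 5.35 kb of H3K4me1 in all, and its single H3K27ac peak (450 bp) touched H3K4me3 but no H3K4me1 region. H3K27ac cover was lower at 8.92% of genes only. Pol II and p300/CBP were not listed, as at 13.2% and 62.5% of all genes. Of the 3 long non-coding RNA starts in the locus, ENSG00000286309 had H3K4me1 in its start-site window and the others had no peak in theirs.

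The EDNRA locus held 1 cAE inside the gene, 1450 bp long (chr4:148418901-148420351), 16.652 to 18.101 kb downstream of the TSS. A p300/CBP peak of 100 bp and an H3K27ac peak of 400 bp lay in it without touching each other. The other 3 cAEs were beyond the 3′ end, 69.452 to 116.851 kb from the TSS. The EDNRB locus held 1 cAE of 1700 bp (chr13:78502401-78504101), 9.435 to 11.134 kb upstream of the canonical TSS and within the span of the longest transcript. It carried a p300/CBP peak of 300 bp (chr13:78503101-78503401) and H3K27ac over 2200 bp. This was the p300/CBP peak closest to the TSS of any endothelin gene, 10.135 kb away, and it held TGANTCA once. At least 1 match was found in 54.5% of peaks of its width. The match is shown with 20 bases on each side, from the plus strand at chr13:78503189-78503235.
EDNRB upstream element: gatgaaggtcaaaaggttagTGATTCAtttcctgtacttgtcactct
EDNRB had 1 CTCF peak in its locus, 108.016 kb downstream, and 4.21% of genes had less CTCF cover. Thus both receptor genes had 1 p300/CBP peak, in a cAE within the annotated gene, where EDN1 had 2 outside the gene and EDN2 and EDN3 none. The EDNRB cAE and its p300/CBP peak also lay within OBI1-AS1, so they cannot be assigned to EDNRB alone.

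**Figure D3:**
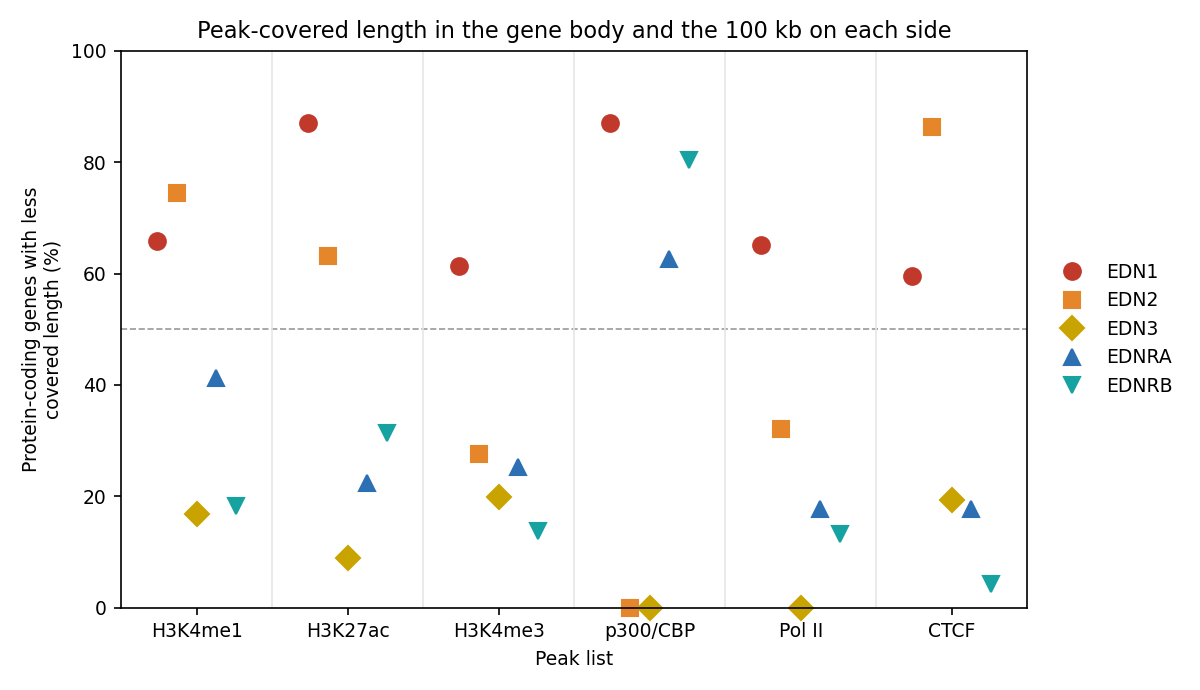
Percent of the 19881 protein-coding genes (vertical axis) that have less peak-covered length than each endothelin gene, over the gene body and the 100 kb on each side, for each peak list (horizontal axis). Each symbol is 1 gene and the dashed line is at 50%. EDN1 lies above the line in every list, EDNRA and EDNRB above it for p300/CBP alone, and EDN2 is highest for CTCF at 86.4%. For p300/CBP any gene with a peak lies above the line. EDN2 and EDN3 stand at 0% for p300/CBP because they have no covered length there, which equals the median of all genes (62.5% of genes share it).

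The promoter of EDN1 was also a viewpoint in the study's NG Capture-C experiment, which sequences the DNA fragments ligated to a chosen promoter. Its promoter-interacting regions (PIRs) came from cells transfected with a control siRNA, not from the untransfected cells of the peak lists. The study chose 34 viewpoint genes for their response to Fra-1, so their PIRs are no sample of all genes. The 135 PIRs read here are slightly fewer than the study counts in its text. EDN1 had 6 PIRs, of which 5 lay upstream, at 710.936 to 53.862 kb, and 1 downstream, at 301.865 to 324.484 kb. Their sizes ran from 2.06 to 22.619 kb with a median of 13.6 kb, against 5.14 kb for the other 129. A larger region has more room for peaks, and the part this has in the counts below was not tested.

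All 6 EDN1 PIRs overlapped H3K4me1 (84.4% of the 135 PIRs), H3K27ac (70.4%) and at least 1 cAE (62.2%), and none held a cIE (23.7%). None overlapped H3K4me3 (35.6%) or Pol II (41.5%). CTCF was listed in 5 of 6 (39.3%) and p300/CBP in 3 of 6 (30.4%). Without EDN1, the other 129 PIRs gave 60.5% for cAEs and 37.2% for CTCF. In every EDN1 PIR, at least 10.4% of the bases were covered by H3K27ac, with a median of 42.3%, against a median of 22.9% in the others.

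**Figure D4:**
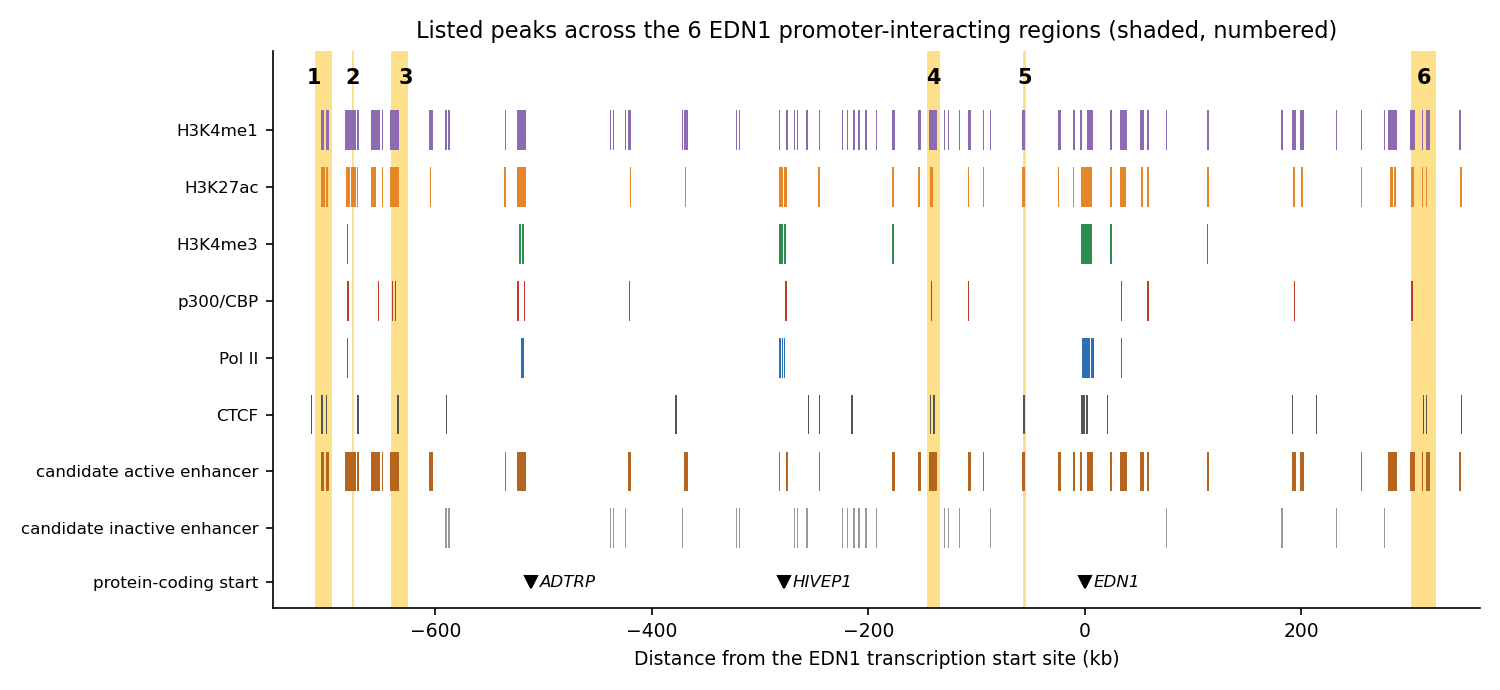
Peaks of the 6 lists, candidate enhancers and protein-coding start sites (triangles) over the region that holds the EDN1 promoter-interacting regions, with distance from the EDN1 start site in kb on the horizontal axis. Shaded bands 1 to 6 are the interacting regions, and bars under 1.2 kb are drawn 1.2 kb wide. Every band overlaps a candidate active enhancer and none overlaps H3K4me3, Pol II or a candidate inactive enhancer.

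PIR 1, the farthest, reached into TMEM170B and held cAEs of 3550 and 3150 bp, each with a CTCF peak. PIR 2 lay wholly within a 10050 bp cAE (chr6:11606951-11617001), which also touched p300/CBP, H3K4me3 and Pol II outside the PIR. PIR 3 overlapped an 8300 bp cAE (chr6:11648851-11657151) with the widest p300/CBP peaks of the set, 400 and 450 bp, and 1 CTCF peak. PIR 4 lay inside HIVEP1, whose own start is 278.049 kb upstream of that of EDN1, and held a cAE of 7550 bp with a 300 bp p300/CBP peak and 2 CTCF peaks. PIR 5, nearest to the promoter, overlapped a cAE of 2250 bp that contained a 500 bp CTCF peak, and is the only one of the 6 within 100 kb of EDN1. PIR 6, downstream, overlapped 3 cAEs, of which the first carried p300/CBP peaks of 100 and 150 bp. p300/CBP thus appeared 636.844 kb upstream, 141.594 kb upstream and 302.257 kb downstream, in cAEs of 8300, 7550 and 4150 bp.

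None of the 5 p300/CBP peaks in the PIRs contained TGANTCA. Among all p300/CBP peaks of their widths, the share with a match ran from 11.3% at 100 bp to 57.1% at 400 bp. TGANTCA was searched in these peaks only, not in the rest of the PIRs. For the EDN1 promoter, the study reports contact with a PIR that has active enhancer marks and is bound by a Fos family protein. That protein, Fra-1, is not in the 6 lists. The missing matches therefore do not show that the EDN1 PIRs lack AP-1. Of the 8 CTCF peaks in the PIRs, 1 held the core consensus of CTCF (16.1% of all CTCF peaks of its width), and of the 6 other CTCF peaks of the EDN1 locus none did. That match, in PIR 3, 634.611 kb upstream, reads 5′ to 3′ toward EDN1 on the plus strand, and is shown as the single match among the EDN1 PIRs (chr6:11655963-11656014).
EDN1 PIR 3 CTCF peak: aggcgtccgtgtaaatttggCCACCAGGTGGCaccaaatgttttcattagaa
The search asks for exact letters, and a peak without a match may hold a weaker form.

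The 6 PIRs filled 71.269 kb, or 6.88%, of the 1035.42 kb between the outer edges of the first and the last. They overlapped 9 of the 37 cAEs in this span, 0 of the 25 cIEs, 8 of 22 CTCF peaks and 5 of 15 p300/CBP peaks. The 10 H3K4me3 and 8 Pol II peaks of the span all lay outside them. The span includes the EDN1 promoter, which is the viewpoint and cannot be its own PIR. The H3K4me3, Pol II and CTCF peaks of the promoter domain were therefore outside the PIRs by design. Only 2 other protein-coding starts were in the span. HIVEP1, a zinc finger transcription factor gene, carried H3K27ac, H3K4me3 and Pol II in its start-site window. ADTRP, 511.558 kb upstream of EDN1, had no peak in its window. Peaks of H3K27ac, H3K4me3, p300/CBP and Pol II were listed near the ADTRP start, but outside that window. Of the 10 cAEs in the EDN1 locus, 1 was in a PIR, and both of those with p300/CBP were outside the PIRs. The study states that elements very close to a viewpoint fall below the resolution of NG Capture-C. For the cAEs nearest to the EDN1 start, a missing PIR is thus no measure of missing contact.

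Genes of endothelin processing, signalling and control were read in the same way from a list of 37 genes. Their start-site windows carried H3K4me1 at 24, H3K27ac at 29, H3K4me3 at 27, Pol II at 26, CTCF at 11 and p300/CBP at 0 of 37. As shares of the list these are 64.9% for H3K4me1 (59.4% of all protein-coding genes), 78.4% for H3K27ac (61.5%), 73% for H3K4me3 (62.7%), 70.3% for Pol II (58.4%), 29.7% for CTCF (17.6%) and 0% for p300/CBP (0.704%). The differences between the list and all genes, and between the groups of the list, were not tested.

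Among the 8 genes of ligand processing, H3K27ac and Pol II were each listed at 4, or 50% (61.5% and 58.4% of all genes). ECE1, the main endothelin-converting enzyme, had H3K4me1, H3K27ac, H3K4me3 and Pol II, while ECE2, its paralogue, had H3K4me1 only. Of the precursor-cutting proteases, FURIN, PCSK5 and PCSK7 had H3K27ac and Pol II, with H3K4me3 at the last 2, and PCSK6 had no peak. KEL, which cuts big endothelin-3, and CMA1, the mast cell chymase, had none. Of the enzymes that degrade the peptide, CTSA carried 5 lists and MME, neprilysin, none.

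Receptor coupling genes carried H3K27ac at 10 of 11 (90.9%, against 61.5% of all genes) and Pol II at 8 of 11 (72.7%, against 58.4%). GNAQ and GNA11, whose G protein subunits link both receptors to phospholipase C, had H3K4me1, H3K27ac, H3K4me3 and Pol II, as did GNA12, GNA13, GNAI2 and GNAI3. The phospholipase C genes varied more, with the same marks at PLCB3, H3K27ac and H3K4me3 without Pol II at PLCB1, H3K4me1 and H3K27ac at PLCB2, and no peak at PLCB4. The 5 desensitization genes, ARRB1, ARRB2, GRK2, GRK5 and GRK6, which encode arrestins and receptor kinases, all had H3K4me1, H3K27ac and H3K4me3 (59.4%, 61.5% and 62.7% of all genes), and all but GRK2 had Pol II (58.4%). Among 11 factors known to act on the EDN1 promoter, 9 or 81.8% had H3K27ac, H3K4me3 and Pol II, including JUN, FOS, HIF1A, ARNT and SMAD3. Over all genes the shares were 61.5%, 62.7% and 58.4% for each mark alone. The other 2 were GATA2 and GATA4, which had no peak of any list. The study states that Fos was not detectable in these cells, so the peaks at FOS do not show its protein. FOSL1, the gene of the Fos family protein Fra-1, is not among the factors listed.

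**Figure D5:**
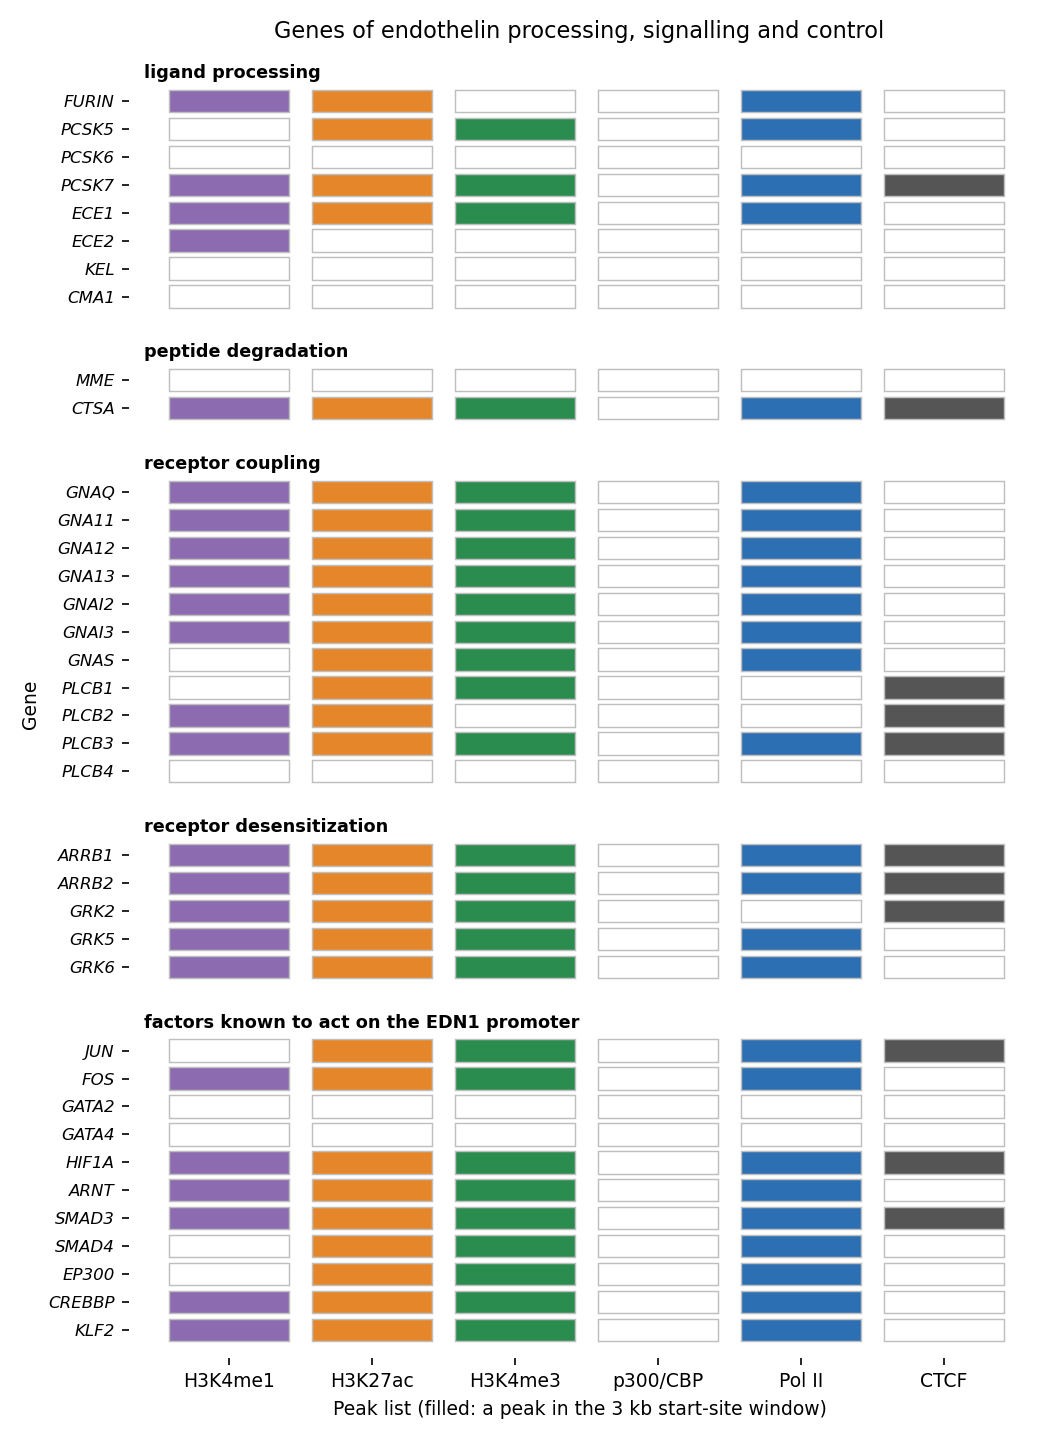
Each of the 37 genes of endothelin processing, signalling and control (rows, by role) and the 6 peak lists (columns), where a filled box is at least 1 peak in the 3 kb start-site window. The p300/CBP column is empty, the desensitization genes are filled for all 3 histone marks, and KEL, CMA1, PCSK6, MME, PLCB4, GATA2 and GATA4 are empty throughout.

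The genes most like each member were found from the covered length of each of the 6 lists within 100 kb of the TSS, ranked over all protein-coding genes, as the smallest Euclidean distance in percentile points. For EDN1 they were POLR1B, OR10A3 and NF2, at 9.97 to 10.7 points, against a median over all genes of 85.6. OR10A3 is an olfactory receptor gene, and the measure describes a neighbourhood, not a gene. POLR1B, the closest, had 22.4 kb of H3K27ac and 0.65 kb of p300/CBP against 25.7 and 0.45 kb at EDN1. For EDN2 they were AKR1B1, PLEKHG3 and FGF4, with AKR1B1 at 12.3 points and the others above 18. For EDN3 they were ZNF385B, FCAR and PLCL2, all without Pol II and p300/CBP. For EDNRA they were ARPP21, ZPLD1 and TWIST2, of which ARPP21, at 5.56 points, was the nearest found for any of the 5. For EDNRB they were MYT1L, DLC1 and TRPS1, at 11.9 to 13.9 points.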

How the data were processed

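Libraries from 6 antibodies and input were made by the authors from MDA-MB-231 chromatin. Reads were aligned to hg19 (BWA-backtrack in the study's methods, Bowtie2 in the submitters' processing notes), uniquely mapped reads were turned into signal in 50 bp bins with PASHA, replicates were merged, and a threshold was applied in the Integrated Genome Browser to call peaks. The deposited lists hold peak positions in bp (chromosome, start, end) and no other value. Per the file names, thresholds were 30 to 60 signal units, minimum runs 50 to 250 bp and maximum gaps 50 to 1000 bp, so widths depend on these settings: H3K4me1 gaps of up to 1000 bp were bridged, those of p300/CBP and CTCF up to 50 bp. Read depth is unknown, and the 2 input samples were not used here.

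Positions are given as listed, with the end taken as the first base after a peak. No peak lay past a chromosome end of GRCh37. Overlap (at least 1 bp) was computed in Python 3.11.15 with NumPy 2.4.6 against GENCODE release 44 lifted to GRCh37 (19881 protein-coding genes on nuclear chromosomes, 1 canonical TSS each), after agreement with brute force in 3200 simulated comparisons. Positions of the 135 promoter-interacting regions came from the study's supplementary table, and its other columns were not used. Sequences were read with pysam 0.24.0 from GRCh37, and promoter bases that overlap an annotated exon are not printed. The RefSeq starts were placed by exact match of the promoter sequences, which are of GRCh38, for EDN1, EDN2, EDNRA and EDNRB.

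The text names the 5 genes, the pathway list, neighbours with a start in a locus, the markers and the 3 most alike genes (none within 200 kb). Members and lists were chosen with earlier results of these data known. Nothing was tested, for want of replicate peak lists.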

Additional observations from a re-analysis of the deposited data

How the results depend on the processing

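Of 24 counts recomputed under 12 alternatives, 50 of 72 values stayed within 1.5 times the reported count. When peaks narrower than their list's median width were dropped, there remained 1 of the 5 windows each with H3K4me1 (EDN2), H3K27ac, Pol II and CTCF (each EDN1), and EDNRA lost both its peaks and EDNRB all but H3K4me3. Under that setting EDN1, EDN2 and EDNRA had 6, 3 and 0 cAEs, and the pathway list had H3K4me1 at 13, Pol II at 12 and CTCF at 3 genes. With a 1 kb window, Pol II remained at 1 member (EDN1), the EDNRB peak falling outside, and H3K4me1 at 8 pathway genes. With 50 kb on each side EDN2 had 3 cAEs, and the 5 loci had 9 cIEs in place of 18. With 250 kb, cAEs numbered 19 at EDN1, 13 at EDN2, 3 at EDN3, 10 at EDNRA and 5 at EDNRB, and cIEs 67 in all. With at least 50% of the H3K4me1 region under H3K27ac, EDN2 had 2 and EDNRA 1. EDN1 had the most cAEs of the 5 genes under each of these settings. The counts fall with fewer peaks and rise with longer windows by construction. A reported count of 0 could not change under a stricter setting, as for p300/CBP at the start sites or H3K4me3 and Pol II in the EDN1 PIRs. Such values are among the 50, so that number overstates how far the counts could move and did not.

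No paired analysis was possible because replicates were merged before peak calling. Leave-one-out values need replicate lists and were not made. The lists hold no peak values, and peak width stood in for a stricter signal threshold. Depth is unknown, and p300/CBP rests on 1 library.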
